A study of Mus musculus with 6 samples.

Results

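The genes that make sterols, fatty acids and the phospholipids of lung surfactant were followed in RNA-seq libraries of 6 mice with lung cancer, 3 treated with artemisinin and 3 labelled as the model. The 32 genes were chosen by name: 13 enzymes of cholesterol synthesis, 5 genes of sterol regulation and transfer, 4 of fatty acid synthesis, 7 of fatty acid elongation and desaturation, and 3 of phospholipid synthesis. All 32 had a row among the 18238 genes of the deposited count table, and all 32 were among the 15242 genes with enough counts to be tested. Artemisinin is a sesquiterpene lactone from Artemisia annua, used against malaria. Both groups carried lung cancer, so no library came from a healthy lung. The labels give lung cancer as the cell type, and lung transcripts such as Sftpc and Scgb1a1, the markers of type 2 and club cells, were abundant in every library. How the cancer was raised, the strain, age and sex of the mice, the dose, the duration and the tissue piece taken are not given in the sources used here, nor is what the model mice received in place of artemisinin. Each library is taken to be 1 mouse, as the design text lists them. If the libraries of a group shared an animal, the p-values would cover technical spread only.

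Cholesterol is built from acetyl-CoA through mevalonate, isoprenoid units, squalene and lanosterol. Fatty acids are built from cytosolic acetyl-CoA and malonyl-CoA, and are then lengthened by ELOVL enzymes and given double bonds by desaturases. SREBP transcription factors, which are released from the endoplasmic reticulum when sterols are low, switch on the genes of both routes. In the lung the alveolar type 2 cell is the main site of surfactant synthesis. It joins fatty acids to glycerol and choline to make dipalmitoylphosphatidylcholine, the chief lipid of surfactant.

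With artemisinin, Lpcat1 fell 3.83-fold and Acly fell 2.01-fold, while Elovl6 rose 3.17-fold. Lpcat1 encodes the acyltransferase that remodels phosphatidylcholine for surfactant, Acly the lyase that makes cytosolic acetyl-CoA from citrate, and Elovl6 the elongase of saturated and monounsaturated C16 chains. The other 29 genes did not pass the test. Of the 32 genes, 2 were called lower (6.25%) and 1 higher (3.12%), where a call means that the p of edgeR's quasi-likelihood fit, adjusted by Benjamini-Hochberg over the whole table, was below 0.05. Over all tested genes 2.3% were called lower and 2.17% higher, so both shares rest on very few genes. Called or not, 28 of the 32 log2 fold changes of artemisinin over model were negative (87.5%), against 46.8% of all tested genes. Their median was −0.47, against 0.04 over all tested genes. In 14 of the 32 genes (43.8%) all 3 artemisinin values lay below all 3 model values, against 18% of all tested genes. In 1 gene, Elovl6, they lay above, as they did in 15.8% of all tested genes. Without adjustment 13 of the 32 (40.6%) had p under 0.05, against 24.7% of all tested genes. These shares describe genes that are regulated together and were chosen with earlier results known, so they carry no test of their own.

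The libraries held between 25566173 and 34745497 counts, and the 32 genes had between 239 and 197931 counts in a library. Levels below are normalised CPM, counts scaled to library size (CPM) with TMM factors, unless FPKM is named, which also divides by gene length. Artemisinin replicate 2 carried skeletal muscle and keratinocyte transcripts, with 4821 counts of the basal keratin gene Krt5 in it and at most 52 in any other library. Its 6 skeletal muscle markers summed to 5264 normalised CPM, against 55.5 and 10.9 in artemisinin replicates 1 and 3 and at most 4.66 in the model libraries. Some results are also given without that library, namely those of Lpcat1, Pcyt1a, Elovl1, Scd1, Scd2, Idi1, the cholesterol branch and the number of calls.

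Markers of alveolar type 2 cells moved with the groups. All 10 markers checked had negative log2 fold changes, from −2.85 to −1.51, and 6 fell. Their summed level was 16184, 22346 and 7291 normalised CPM in artemisinin replicates 1, 2 and 3, against 79289, 53004 and 63544 in model replicates 1, 2 and 3, and none of the 10 was at or near 0 in any library. Etv5, the least abundant, had 43.0 normalised CPM at its lowest. In whole tissue, fewer cells of a type and less RNA per cell cannot be told apart. Other cell markers moved as well: 6 of 6 smooth muscle markers and 6 of 8 neutrophil markers rose, while none of 6 type 1 markers was called. None of 6 club cell markers was called either, with 5 log2 fold changes above 0 and a median of 1.34. Their summed level was 74167, 21146 and 29085 normalised CPM in artemisinin replicates 1, 2 and 3, against 8503, 20994 and 13754 in model replicates 1, 2 and 3. In 2 of them, Scgb1a1 and Hp, all artemisinin values lay above all model values, as in 15.8% of all tested genes. Of 8 macrophage markers 1 fell, the scavenger receptor gene Marco, and 1 rose, the CSF1 receptor gene Csf1r (log2 −2.50 ± 0.45 and 0.87 ± 0.13, SE; edgeR adjusted p = 0.0303 and 0.0216). Siglecf, a marker of alveolar macrophages, was not called (log2 −1.64 ± 0.44, SE; edgeR adjusted p = 0.0823). Its artemisinin values all lay below its model values, as in 18% of all tested genes. The other 5 macrophage markers, Chil3, Mrc1, Adgre1, C1qa and Lpl, were not called and had overlapping groups. Over the 8 macrophage markers the median log2 fold change was −0.02, with 4 above 0 and 4 below. The part of any of these cell types in the results on lipid genes was not tested. Of the 32 lipid genes only Lpcat1 had a log2 fold change as low as the range of the type 2 markers.

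The 250 bases before the annotated start of the 3 called genes, and of Hmgcs1 for comparison, are shown because SREBP targets are often recognised by a sterol element beside CCAAT and GC boxes. The sequences are RefSeq promoters of GRCm38.p6, written 5′ to 3′ on the strand of the gene. Capitals mark CACNCCAC (the core of a sterol element), CCAAT (the NF-Y box) and GGGCGG (the Sp1 box), searched on both strands, so that a box on the other strand reads as its reverse complement.
Lpcat1, chr13:73466981-73467230, plus strand: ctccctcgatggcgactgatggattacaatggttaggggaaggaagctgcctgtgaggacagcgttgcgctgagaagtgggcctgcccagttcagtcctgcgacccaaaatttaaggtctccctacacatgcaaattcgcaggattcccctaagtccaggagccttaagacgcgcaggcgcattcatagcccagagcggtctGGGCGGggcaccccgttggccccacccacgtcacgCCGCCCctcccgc
Acly, chr11:100528001-100528250, minus strand: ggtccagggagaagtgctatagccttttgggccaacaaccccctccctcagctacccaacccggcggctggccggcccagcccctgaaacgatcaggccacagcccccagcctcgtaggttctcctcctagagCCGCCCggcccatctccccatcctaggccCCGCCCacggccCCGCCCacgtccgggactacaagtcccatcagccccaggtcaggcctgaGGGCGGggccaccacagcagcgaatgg
Elovl6, chr3:129532136-129532385, plus strand: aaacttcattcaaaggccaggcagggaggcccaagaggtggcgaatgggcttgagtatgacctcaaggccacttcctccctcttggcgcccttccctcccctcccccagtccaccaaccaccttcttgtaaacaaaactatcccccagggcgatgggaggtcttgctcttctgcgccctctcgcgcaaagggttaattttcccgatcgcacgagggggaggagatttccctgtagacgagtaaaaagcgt
Hmgcs1, chr13:119690101-119690350, plus strand: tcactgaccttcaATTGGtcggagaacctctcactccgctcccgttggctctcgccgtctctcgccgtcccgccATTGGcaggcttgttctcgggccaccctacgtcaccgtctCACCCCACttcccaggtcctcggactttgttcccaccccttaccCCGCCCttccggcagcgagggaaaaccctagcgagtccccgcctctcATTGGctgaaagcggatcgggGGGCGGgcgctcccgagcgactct

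None of the 3 called genes held CACNCCAC or CCAAT in this window. Lpcat1 and Acly held GGGCGG, 2 and 4 times, and Elovl6 held none of the motifs. Hmgcs1 held CACNCCAC as CACCCCAC with its first base 136 bases before the start, along with 3 CCAAT boxes and 2 GC boxes. The bases after this RefSeq start were not found near the start of a GENCODE M21 transcript of Hmgcs1. For the 3 called genes they were found. Promoters were in the reference table for 25 of the 32 genes, some with several start sites. CACNCCAC was found in 4 of the 25 genes (16%), namely Gpam, Hmgcs1, Insig1 and Pcyt1a, against 6.05% of all 27025 genes with a promoter. CCAAT was found in 18 of the 25 (72%), against 37.5% of all genes, and GGGCGG in 21 (84%), against 35.4%. All of these shares count a gene with several windows if any of them held the motif. The background includes genes that were not tested here, while all of the 25 were tested, so the gap need not be particular to lipid genes. A match is only a stretch of letters, and its absence from this window says nothing of the factor.

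The phospholipid branch held the largest drop. Lpcat1 (chromosome 13, 73467231 to 73516420, GRCm38) had 287, 409 and 166 normalised CPM in artemisinin replicates 1, 2 and 3, against 1328, 914 and 1081 in model replicates 1, 2 and 3. The highest artemisinin value was below the lowest model value by more than 2-fold. The log2 fold change was −1.94 ± 0.35 (SE; edgeR adjusted p = 0.0303), and −2.29 without artemisinin replicate 2 (edgeR adjusted p = 0.0153). The call was lost without artemisinin replicate 1 and without any 1 of the model replicates, where the edgeR adjusted p was 0.0659 to 0.138. The log2 fold change stayed between −2.29 and −1.71 over the 15 alternatives run. Pcyt1a, which encodes the CTP-dependent enzyme that sets the rate of phosphatidylcholine synthesis, had 80.4, 134 and 95.1 normalised CPM in the artemisinin libraries, against 162, 170.4 and 191 in the model libraries. The groups did not overlap, and the difference missed the threshold (log2 −0.75 ± 0.21, SE; edgeR adjusted p = 0.0916). It was called lower without artemisinin replicate 2 (log2 −0.99, edgeR adjusted p = 0.0216). Gpam, the mitochondrial acyltransferase of the first step of glycerolipid synthesis, averaged 92.1 ± 24.2 normalised CPM with artemisinin and 132 ± 18.4 in the model (SD, n = 3 each; edgeR adjusted p = 0.211). In all 3 genes every artemisinin value lay below every model value, as in 18% of all tested genes, and their median log2 fold change was −0.75.

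Of 25 further genes of phospholipid synthesis, 1 fell and none rose, where 2.3% of all tested genes were called lower and 2.17% higher. Their median log2 fold change was −0.07. The one that fell was Cds1, a CDP-diacylglycerol synthase of the route to phosphatidylglycerol and phosphatidylinositol. It had 52.3, 53.8 and 39.9 normalised CPM in the artemisinin libraries and 111, 88.3 and 116 in the model libraries (log2 −1.10 ± 0.18, SE; edgeR adjusted p = 0.0245). Every artemisinin value was thus well below every model value. The call was lost without artemisinin replicate 1, model replicate 1 or model replicate 3 (edgeR adjusted p = 0.0528, 0.118 and 0.102). Chka, a choline kinase of the same route as Pcyt1a, had overlapping groups, with 195, 69.6 and 65.6 normalised CPM in the artemisinin libraries and 149, 113 and 110.3 in the model libraries (edgeR adjusted p = 0.818). Relatives of Lpcat1 pointed both ways without a call. Lpcat2 and Lpcat4 had log2 fold changes of 0.82 and 0.77, and Lpcat3 had −0.67 (edgeR adjusted p = 0.0734, 0.129 and 0.104).

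**Figure D1:**
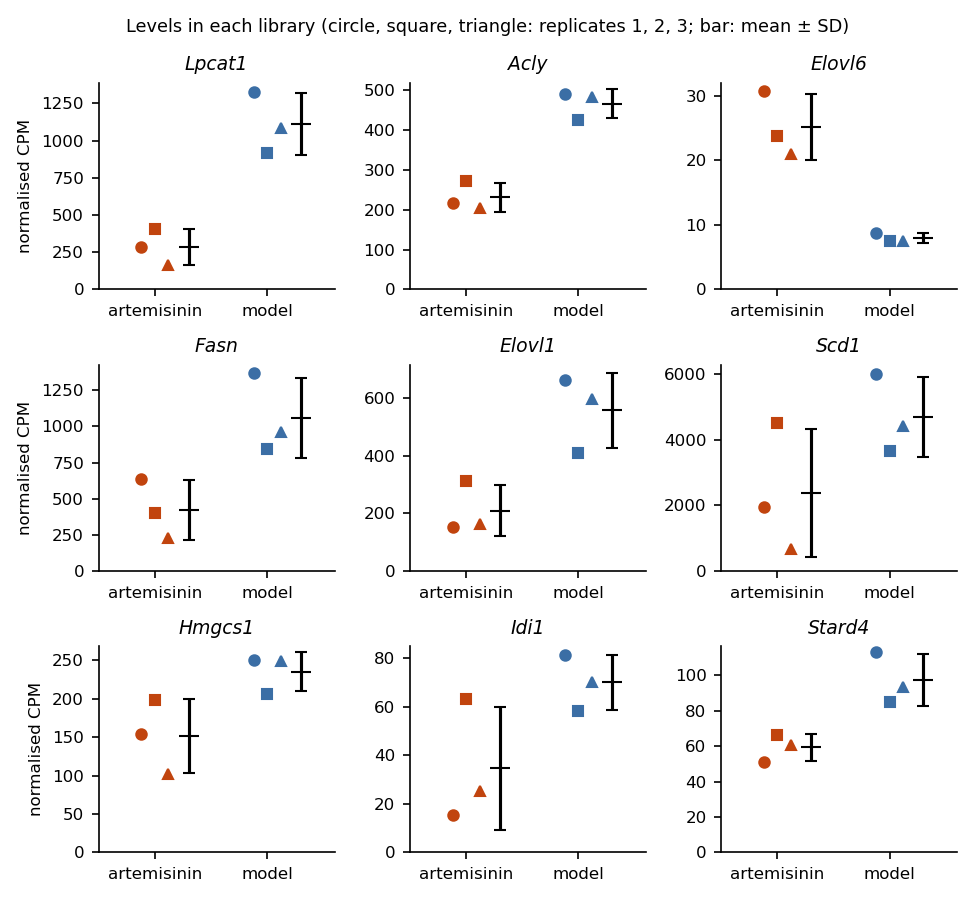
Normalised CPM (vertical axes, each from 0) of 9 lipid genes in the 3 artemisinin libraries (left, orange) and the 3 model libraries (right, blue), with circle, square and triangle for replicates 1, 2 and 3 and the mean ± SD beside them. Lpcat1 lay between 166 and 409 with artemisinin and between 914 and 1328 in the model, Elovl6 is the one panel with the artemisinin points on top, and Scd1 and Idi1 overlap through artemisinin replicate 2.

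In fatty acid synthesis, Acly (chromosome 11, 100476352 to 100528000) had 217, 272 and 204 normalised CPM in artemisinin replicates 1, 2 and 3, against 491, 424 and 483 in model replicates 1, 2 and 3. The values of each group were close together and the groups were far apart. The log2 fold change was −1.01 ± 0.18 (SE; edgeR adjusted p = 0.0295). The call was lost without artemisinin replicate 1 or 3 and without any 1 of the model replicates, where the edgeR adjusted p was 0.0559 to 0.139. Its log2 fold change lay between −1.15 and −0.89 over the 15 alternatives. Fasn, the multifunctional fatty acid synthase, had 637, 402 and 228 normalised CPM in the artemisinin libraries and 1371, 843 and 958 in the model libraries. The groups did not overlap, yet the spread within them was wide, and the difference missed the threshold (log2 −1.32 ± 0.39, SE; edgeR adjusted p = 0.102). Me1, the malic enzyme that supplies NADPH, had 169, 93.8 and 52.0 normalised CPM in the artemisinin libraries and 262, 178 and 205 in the model libraries, again without overlap (edgeR adjusted p = 0.173). Acaca, the acetyl-CoA carboxylase that makes malonyl-CoA, averaged 82.9 ± 35.8 normalised CPM with artemisinin and 124 ± 9.15 in the model (SD, n = 3 each), and its groups overlapped (edgeR adjusted p = 0.289).

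The 4 genes of fatty acid synthesis had the lowest median log2 fold change of the 5 branches, −1.02. Within the artemisinin group Fasn, Me1 and Acaca were highest in replicate 1 and lowest in replicate 3. Replicate 1 also had the highest summed level of 8 fat cell markers, with 664.7, 81.9 and 105.8 normalised CPM in artemisinin replicates 1, 2 and 3, against 34.5 to 60.9 in the model libraries. None of the 7 fat cell markers tested was called, and Lep, which was not tested, was at most 0.406 normalised CPM. The part of fat cells in these levels was not tested. Without artemisinin replicate 1 the branch median was −1.25. Of 9 further genes of fatty acid synthesis none was called, and their median log2 fold change was 0.16. Acss2, which makes acetyl-CoA from acetate, averaged 49.8 ± 13.6 normalised CPM with artemisinin and 44.8 ± 14.7 in the model (SD, n = 3 each; edgeR adjusted p = 0.754).

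Elongation and desaturation held the gene that rose. Elovl6 (chromosome 3, 129532386 to 129638495) had 30.8, 23.7 and 20.9 normalised CPM in artemisinin replicates 1, 2 and 3, against 8.77, 7.56 and 7.53 in model replicates 1, 2 and 3. The lowest artemisinin value was more than 2-fold above the highest model value. The log2 fold change was 1.67 ± 0.20 (SE; edgeR adjusted p = 0.0130), and between 1.22 and 1.78 over the 15 alternatives. The call was lost without any 1 of the model replicates (edgeR adjusted p 0.0563 to 0.0778). Its highest value was in artemisinin replicate 1, the library with the most fat cell transcripts, and without that library it was still called higher (edgeR adjusted p = 0.0310). In artemisinin replicates 2 and 3 the 8 fat cell markers summed to 81.9 and 105.8 normalised CPM, against 34.5 to 60.9 in the model libraries. Of the 81.9 in replicate 2, Fabp4 gave 55.5, against 20.9 to 24.7 in the model libraries. Adipoq, Plin1, Cidec and Adig were within the model range in replicate 2, Cfd and Retn above it, and Lep below it at 0. In replicate 3 Cidec and Lep were within the model range and the other markers above it. The part of fat cells in the level of Elovl6 was not tested. Elovl6 was the least abundant of the 32 genes per length in both groups, with 4.39 ± 0.947 FPKM with artemisinin and 1.29 ± 0.0975 FPKM in the model (SD, n = 3 each).

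Elovl1 and Elovl5, the other elongases of the 32 genes, had negative log2 fold changes. Elovl1, which lengthens saturated chains to very long ones, had 153, 311 and 163 normalised CPM in the artemisinin libraries and 663, 411 and 598 in the model libraries. Its groups did not overlap, and it stood just outside the threshold (log2 −1.40 ± 0.33, SE; edgeR adjusted p = 0.0606). Without artemisinin replicate 2, which was nearest to the model, it was called lower (log2 −1.82, edgeR adjusted p = 0.0153). Elovl5, an elongase of polyunsaturated chains, had 215, 245 and 196 normalised CPM in the artemisinin libraries and 287, 273 and 293 in the model libraries, close to each other but without overlap (edgeR adjusted p = 0.189). Among 13 further genes of elongation and desaturation, 10 could be tested, none was called, and their median log2 fold change was 0.06. Hacd3, a dehydratase of the elongation cycle, came nearest (log2 −0.82 ± 0.18, SE; edgeR adjusted p = 0.0501).

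The stearoyl-CoA desaturases Scd1 and Scd2 place the first double bond in saturated chains. Of the 32 genes Scd1 had the highest mean level in both groups and the widest spread among the artemisinin libraries. Scd1 had 1935, 4503 and 661 normalised CPM in artemisinin replicates 1, 2 and 3, against 6008, 3651 and 4407 in model replicates 1, 2 and 3. Artemisinin replicate 2 lay within the model range and the other 2 artemisinin libraries below it. The highest artemisinin library had 6.81 times the level of the lowest, and the highest model library 1.65 times. No difference was called (log2 −0.97 ± 0.63, SE; edgeR adjusted p = 0.367). Without artemisinin replicate 2 the log2 fold change of Scd1 was −1.85 and not called (edgeR adjusted p = 0.0721). Scd2, its neighbour on chromosome 19, had 514, 1018 and 393 normalised CPM in the artemisinin libraries and 1285, 877 and 1017 in the model libraries, with the same library closest to the model (edgeR adjusted p = 0.275). Without that library Scd2 was called lower (log2 −1.23, edgeR adjusted p = 0.0394). Scd1 and Scd2 are close paralogues, so the split of reads between them is less certain. Scd1 alone held 32.4%, 46.1% and 17.9% of the summed FPKM of the 32 genes in artemisinin replicates 1, 2 and 3, and 42.2%, 36.3% and 37.8% in model replicates 1, 2 and 3.

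The front desaturases of polyunsaturated fatty acids were not called. Fads1, the delta-5 desaturase, had 176, 178 and 136 normalised CPM in the artemisinin libraries and 170.1, 181 and 186 in the model libraries (log2 −0.12 ± 0.16, SE; edgeR adjusted p = 0.643). Fads2, the delta-6 desaturase, had 44.9, 81.0 and 60.6 normalised CPM in the artemisinin libraries and 74.0, 81.8 and 75.7 in the model libraries (edgeR adjusted p = 0.412). In both genes the groups overlapped, with 1 or more artemisinin libraries at the model level.

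**Figure D2:**
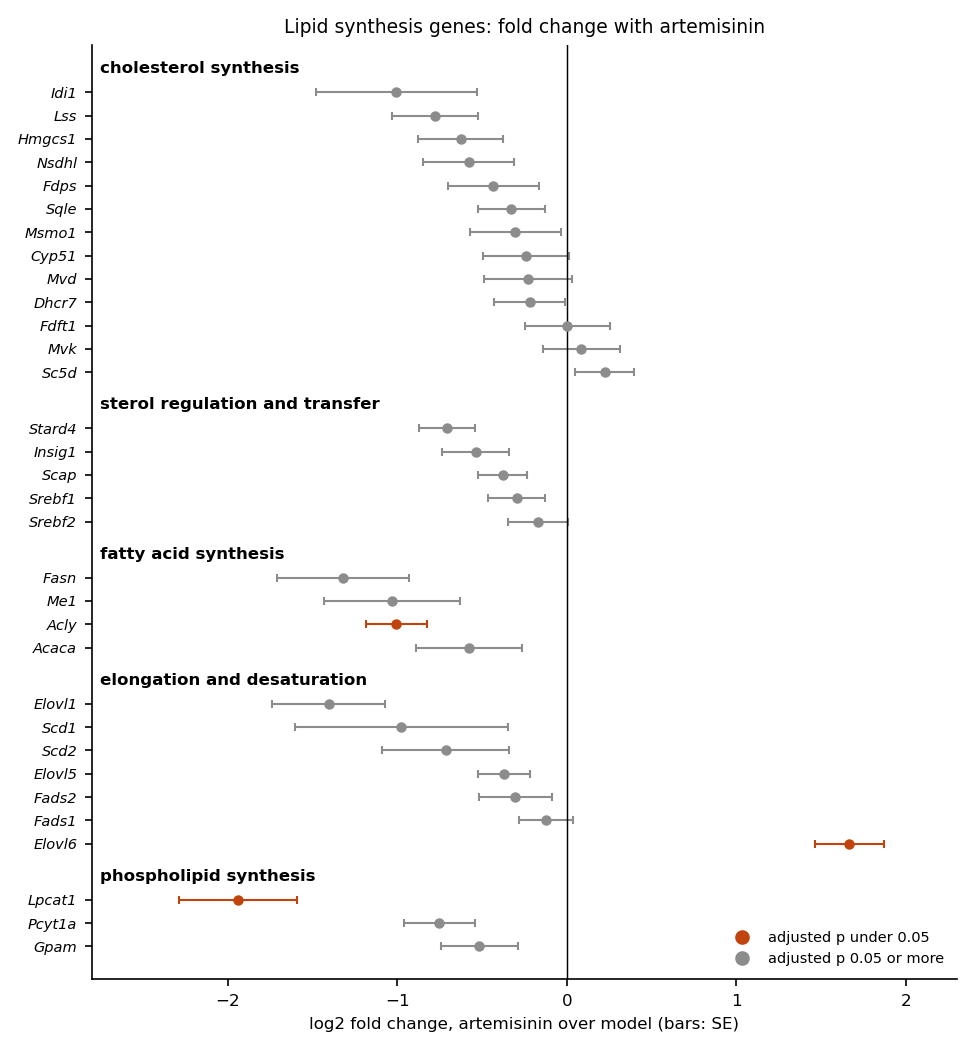
Log2 fold change of artemisinin over model (horizontal axis, bars show the SE) for each of the 32 genes, grouped by branch, with called genes in orange and the rest in grey. Elovl6 stands alone on the right at 1.67, Lpcat1 is lowest at −1.94, and the cholesterol genes lie between −1.01 and 0.22.

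Cholesterol synthesis had no called gene. The 13 enzymes had a median log2 fold change of −0.30, and 10 of the 13 were negative. In 3 of the 13 all artemisinin values lay below all model values, a share close to the 18% of all tested genes. At the head of the pathway Hmgcs1 (chromosome 13, 119690351 to 119708260), the cytosolic HMG-CoA synthase, had 153, 199 and 103 normalised CPM in artemisinin replicates 1, 2 and 3, against 250.1, 206 and 249 in model replicates 1, 2 and 3. The groups did not overlap, though artemisinin replicate 2 came within a few percent of model replicate 2 (log2 −0.63 ± 0.25, SE; edgeR adjusted p = 0.185).

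The mevalonate and isoprenoid steps were mixed. Mvk and Mvd, the kinase and the decarboxylase of mevalonate, had overlapping groups and log2 fold changes of 0.09 ± 0.23 and −0.23 ± 0.26 (SE; edgeR adjusted p = 0.833 and 0.607). In Mvd the overlap came from artemisinin replicate 2 alone. Idi1, the isomerase of isopentenyl diphosphate, had 15.5, 63.1 and 25.1 normalised CPM in artemisinin replicates 1, 2 and 3, against 81.3, 58.4 and 70.4 in model replicates 1, 2 and 3. Artemisinin replicate 2 stood within the model range and the other 2 artemisinin libraries far below the lowest model value. The log2 fold change of Idi1 was −1.01 ± 0.47 (SE; edgeR adjusted p = 0.239), and −1.78 and called without artemisinin replicate 2 (edgeR adjusted p = 0.0163). Fdps, the farnesyl diphosphate synthase, averaged 65.2 ± 23.9 normalised CPM with artemisinin and 88.6 ± 8.59 in the model (SD, n = 3 each; edgeR adjusted p = 0.349). Its groups overlapped through artemisinin replicate 2 alone, and its log2 fold change ranged from −0.74 to −0.23 over the 15 alternatives. Exons of Fdps share 26.7% of their bases with Gm43738 on the same strand in GENCODE M21, so its level is less certain.

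From squalene onward Lss, the lanosterol synthase that closes the sterol rings, showed the clearest separation, with 39.8, 45.3 and 23.0 normalised CPM in the artemisinin libraries and 69.4, 58.3 and 58.5 in the model libraries (log2 −0.78 ± 0.25, SE; edgeR adjusted p = 0.124). Nsdhl, a dehydrogenase that helps remove the C4 methyl groups, had 18.4, 32.3 and 16.3 normalised CPM in the artemisinin libraries and 34.4, 33.5 and 32.7 in the model libraries. Its model values were nearly the same, and artemisinin replicate 2 was just below them (log2 −0.58 ± 0.27, SE; edgeR adjusted p = 0.229). Sqle, Cyp51, Msmo1 and Dhcr7, which encode squalene epoxidase, lanosterol demethylase, the C4 methyl oxidase and the last reductase, had overlapping groups and log2 fold changes between −0.33 and −0.22. In each of them the overlap came from artemisinin replicate 2 alone. Over the 15 alternatives the log2 fold change ranged from −0.57 to −0.19 in Sqle and −0.53 to −0.05 in Cyp51. In Msmo1 it ranged from −0.65 to −0.14, and in Dhcr7 from −0.43 to −0.11. Fdft1, the squalene synthase, and Sc5d, the lathosterol desaturase, had log2 fold changes of 0.00 ± 0.25 and 0.22 ± 0.18 (SE; edgeR adjusted p = 0.996 and 0.457). Exons of Fdft1 share 18.3% of their bases with Ctsb on the other strand in GENCODE M21, and the strand setting of the counting was not given, so its level is less certain. Of 9 further cholesterol genes none was called, with a median log2 fold change of −0.21.

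The 5 genes of sterol regulation and transfer all had negative log2 fold changes, from −0.71 to −0.17, and none was called. Srebf1 and Srebf2, which encode the SREBP factors, had overlapping groups. Srebf1 had 138, 114 and 102 normalised CPM in the artemisinin libraries and 163, 129 and 145 in the model libraries, and Srebf2 had 143, 189 and 173 in the artemisinin libraries and 162, 197 and 212 in the model libraries, with log2 fold changes of −0.29 ± 0.17 and −0.17 ± 0.18 (SE; edgeR adjusted p = 0.312 and 0.568). Scap, the escort that carries SREBP to the Golgi, averaged 65.2 ± 9.42 normalised CPM with artemisinin and 85.2 ± 5.15 in the model (SD, n = 3 each; edgeR adjusted p = 0.174). Insig1, the sterol-dependent anchor that keeps SCAP in the endoplasmic reticulum and is itself an SREBP target, averaged 72.9 ± 17.8 normalised CPM with artemisinin and 106 ± 5.78 in the model (SD, n = 3 each; edgeR adjusted p = 0.158). Stard4, a soluble sterol transfer protein, came nearest to a call of the 5, with 51.4, 66.3 and 60.7 normalised CPM in the artemisinin libraries against 114, 85.2 and 93.7 in the model libraries (log2 −0.71 ± 0.16, SE; edgeR adjusted p = 0.0585). In Scap, Insig1 and Stard4, 3 of the 5, all artemisinin values lay below all model values, as in 18% of all tested genes.

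Among 17 further genes of sterol regulation, uptake and efflux 15 could be tested, and 2 fell, where 2.3% of all tested genes were called lower. Npc2, the lysosomal carrier that hands on cholesterol, had 612, 962 and 580.2 normalised CPM in the artemisinin libraries and 3132, 1808 and 1933 in the model libraries (log2 −1.66 ± 0.32, SE; edgeR adjusted p = 0.0369). Soat1, which esterifies cholesterol for storage, had 75.0, 116 and 91.2 normalised CPM in the artemisinin libraries and 244, 182 and 211 in the model libraries (log2 −1.17 ± 0.21, SE; edgeR adjusted p = 0.0291). Neither gene had overlapping groups. Both calls were lost without artemisinin replicate 1 or 3 and without any 1 of the model replicates (edgeR adjusted p up to 0.138 for each), with the direction kept. The median log2 fold change of the 15 tested was −0.23.

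**Figure D3:**
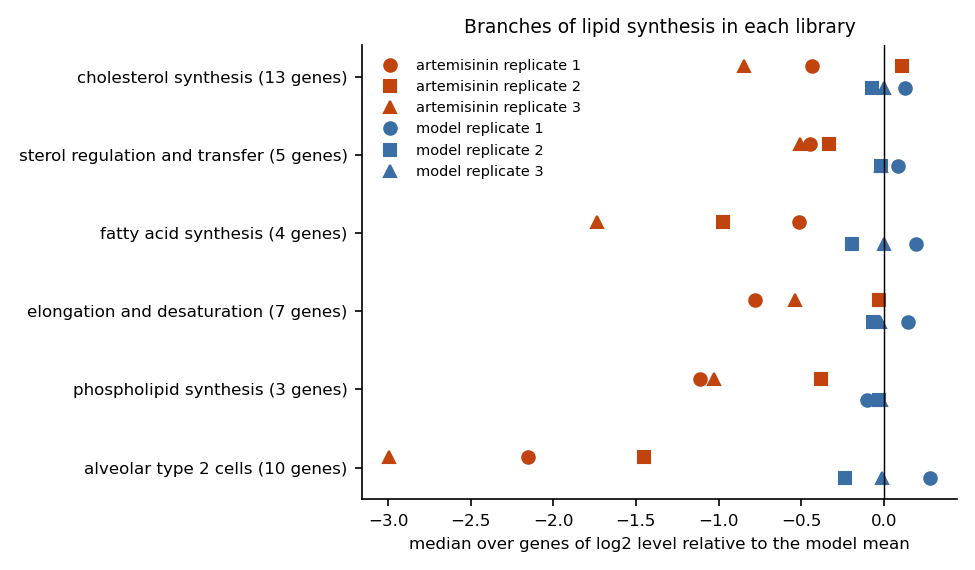
Median over the genes of a branch of the log2 level relative to the model mean (horizontal axis), for each artemisinin library (orange, upper row of each branch) and each model library (blue, lower row), with 10 alveolar type 2 markers at the bottom. Cholesterol synthesis overlaps between the groups because artemisinin replicate 2 is at 0.11, and fatty acid synthesis and the type 2 markers are lowest in artemisinin replicate 3 at −1.74 and −2.99.

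The branches did not order the 3 artemisinin libraries in the same way. The median log2 level of the cholesterol enzymes relative to the model mean was −0.44, 0.11 and −0.85 in artemisinin replicates 1, 2 and 3, against −0.07 to 0.13 in the model libraries. For fatty acid synthesis it was −0.52, −0.97 and −1.74 in artemisinin replicates 1, 2 and 3, against −0.19 to 0.19 in the model libraries. Artemisinin replicate 2 thus reached the model level for cholesterol enzymes but not for fatty acid synthesis. Elongation and desaturation stood at −0.78, −0.03 and −0.54 in the artemisinin libraries, against −0.07 to 0.14 in the model, again with replicate 2 at the model level. Phospholipid synthesis stood at −1.11, −0.38 and −1.03, against −0.10 to −0.02, and sterol regulation at −0.45, −0.33 and −0.51, against −0.02 to 0.08, neither with overlap. Over single genes, artemisinin replicate 2 was the highest of its group in 23 of the 32 and replicate 3 the lowest in 24. The same counts were not made over all tested genes. The type 2 markers were also highest in replicate 2 and lowest in replicate 3, with medians of −2.15, −1.45 and −2.99 in artemisinin replicates 1, 2 and 3. The part of type 2 cells in the order of the lipid genes was not tested. Without artemisinin replicate 2 the median log2 fold change of the cholesterol branch was −0.57, and without artemisinin replicate 3 it was −0.15, against −0.30 with all libraries. Without artemisinin replicate 2, 8 of the 32 genes were called lower and 1 higher, while the calls over all tested genes were 713 lower and 670 higher, against 351 lower and 331 higher with all libraries. Those 8 were Lpcat1, Acly, Elovl1, Idi1, Nsdhl, Pcyt1a, Scd2 and Stard4.

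The spread within groups was uneven. The highest artemisinin library had a median of 1.75 times the level of the lowest over the 32 genes, and the highest model library 1.20 times. In 12 genes the artemisinin ratio exceeded 2, and in no gene did the model ratio. These ratios were not computed over all tested genes, so the uneven spread is not shown to be particular to the lipid genes. After Scd1 the widest artemisinin ratio was that of Idi1, at 4.07.

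**Figure D4:**
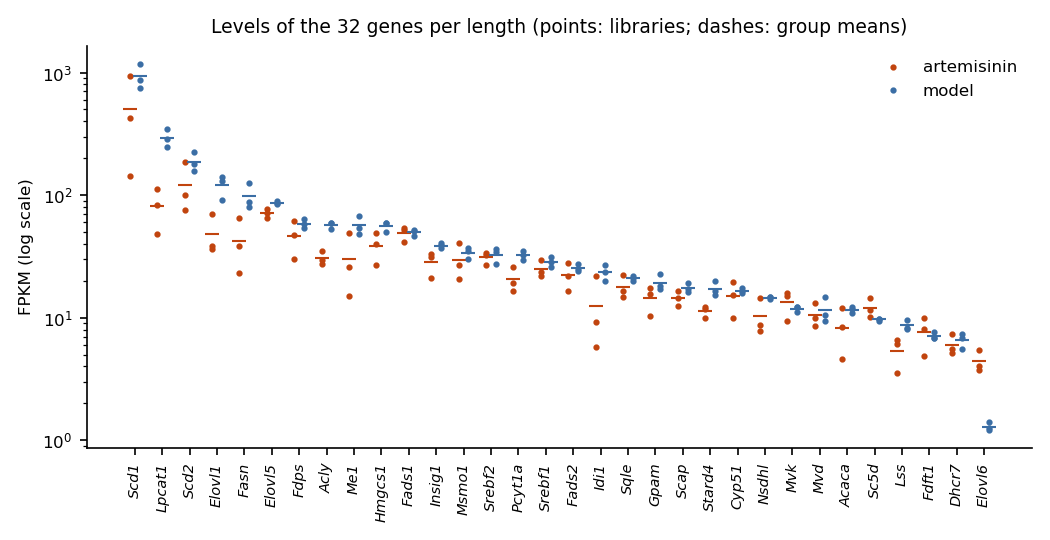
FPKM on a log axis of the 32 genes in the 3 artemisinin libraries (orange, left of each pair) and the 3 model libraries (blue, right), with dashes for group means and genes ordered by their model mean. Scd1 is highest in both groups, with means of 500.0 FPKM with artemisinin and 931 FPKM in the model, and Elovl6 is lowest, with means of 4.39 and 1.29 FPKM.

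Levels per length differed widely between genes. Scd1, Lpcat1 and Scd2 led in the model, with 931 ± 224, 292 ± 49.9 and 187 ± 33.4 FPKM. In the artemisinin libraries the order was Scd1, Scd2 and Lpcat1, with 500.0 ± 399, 121 ± 58.4 and 81.1 ± 32.1 FPKM (SD, n = 3 in each group). Elovl1 had rank 6 with artemisinin, at 48.5 ± 18.8 FPKM, and rank 4 in the model, at 120.4 ± 26.4 FPKM (SD, n = 3 each). The 32 genes together took 0.614%, 0.928% and 0.361% of all counts in artemisinin replicates 1, 2 and 3, and 1.32%, 0.953% and 1.08% in model replicates 1, 2 and 3. All 3 artemisinin shares were thus below the lowest model share, by little for replicate 2. Scd1, which was not called and had overlapping groups, was the largest part of each share. It had 52403, 144745 and 23103 counts in artemisinin replicates 1, 2 and 3, and 197931, 118251 and 139855 in model replicates 1, 2 and 3. Such shares were not computed for other sets of genes.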

How the data were processed

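Per the labels' protocols, RNA isolation used a mirVana kit and library preparation a stranded TruSeq mRNA kit. Per the submitters' processing notes the build was GRCm38 (mm10). The sources used here do not name the aligner, counter, annotation or strand setting. The authors deposited read counts per gene, not normalized, and FPKM, counts per gene length and library total. The implied length of each gene agreed across libraries to within 5.3e-07 over 15462 genes with counts in every library, so FPKM add no evidence. No column of values was without a sample. The FPKM are not TMM scaled.

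Counts were fitted over all genes with edgeR 4.0.16 in R 4.3.3 (filterByExpr, TMM, robust quasi-likelihood, Benjamini-Hochberg adjustment, threshold 0.05), artemisinin over model, without covariates. Normalised CPM are counts over the library total times its TMM factor (0.948 to 1.06). SE is the log2 fold change divided by the square root of F. Per-library branch medians used log2(normalised CPM + 0.1). With 3 libraries a group, 0.1 is the smallest p that an exact two-sided permutation test allows, so p-values rest on the spread shared across genes. Coordinates are RefSeq GRCm38.p6, matched by the Entrez number in the table. Further pathway genes were named if called, or if on a short list to be named whatever their result, of which Acss2 and Chka are given and the rest are not reported here. Others were chosen after their values were seen. The members and lists were chosen with earlier results of these data known.

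Alternatives were other scalings (RLE, library totals), no filter, at least 1 CPM in 3 libraries, DESeq2 1.42.0, limma 3.58.1 (voom, and trend on log2(FPKM + 0.1) or log2(FPKM + 1) at a mean FPKM of at least 0.5), the replicate number as a block, and each library left out. On counts simulated from these libraries edgeR recovered 22% of 2-fold and 87% of 4-fold changes over 15121 genes, with 8.4% of its calls false, and DESeq2 had 24.35% false. The simulation changed few genes and drew counts with dispersions that edgeR had estimated, so these shares hold for that setting only.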

Additional observations from a re-analysis of the deposited data

How the results depend on the processing

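Over all tested genes, 331 were called higher and 351 lower, among them 1 and 2 of the 32 lipid genes. DESeq2 called 1234 higher and 1052 lower, with 7 lipid genes lower (Acly, Elovl1, Fasn, Lpcat1, Lss, Pcyt1a and Stard4). A larger share of its calls was false on simulated counts. Those counts had few changed genes and used dispersions from edgeR, so that share may differ in these data. Leaving out 1 library at a time gave 6 to 670 genes higher and 11 to 713 lower, and 0 to 1 lipid genes higher and 0 to 8 lower. The fewest calls came without model replicate 1 and the most without artemisinin replicate 2. The replicate number did not pair the libraries (correlations of same-numbered deviations −0.00395, −0.1032 and 0.0303), and with it as a block 65 genes were higher and 63 lower, with Elovl6 called and 0 of the 32 lipid genes lower. The calls of Cds1, Npc2 and Soat1 were also lost with the block (edgeR adjusted p = 0.0683, 0.0835 and 0.0820). The median of sterol regulation and transfer, −0.38, was −0.27 with library totals, −0.28 with log2(FPKM + 0.1) and −0.27 with log2(FPKM + 1). Over the 15 alternatives Elovl6 was called in 12, Lpcat1 in 10 and Acly in 9, each with its direction kept. The log2 fold change of Mvk (0.09) ranged from −0.041 to 0.26 with libraries left out. That of Fdft1 (0.003) ranged from −0.20 to 0.21, and was −0.0055 with RLE scaling, −0.0084 without a filter, −0.0055 in DESeq2, −0.060 with limma-voom and −0.054 with the block. The cause of these shifts was not tested. Each lipid gene had at least 239 counts a library, while 3 libraries a group left 2-fold changes mostly undetected in simulated counts.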

Other observations

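Some genes of fatty acid synthesis and elongation that were not called had 1 library far from the others, and they are given here as values chosen after they were seen. Thrsp, a regulator of lipogenesis, had 167, 17.9 and 21.2 normalised CPM in artemisinin replicates 1, 2 and 3, against 9.38, 13.3 and 4.76 in model replicates 1, 2 and 3 (edgeR adjusted p = 0.120). Its high library was the one with the most fat cell transcripts. Elovl4, an elongase of very long chains that is active in skin, had 0.554, 41.3 and 0.258 normalised CPM in artemisinin replicates 1, 2 and 3, against 0.698, 0.0309 and 0.756 in model replicates 1, 2 and 3 (edgeR adjusted p = 0.189). Its high library was the one with Krt5. The part of fat and skin cells in these values was not tested.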
